A study of Mus musculus with 20 samples.

Results

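The 2 libraries described here measured trimethylation of lysine 27 on histone H3 (H3K27me3) by chromatin immunoprecipitation and sequencing in mouse embryonic fibroblasts (MEFs), connective tissue cells grown from embryos. They came from wild-type cells (Jmjd3+/+, WT, labelled strain C57BL/6J-OG2) and from cells lacking the histone demethylase JMJD3 (Jmjd3-/-, KO, labelled strain C57Bl6J), with 1 library per genotype. Both were untreated, at day 0 and without OSKM, the 4 reprogramming factors OCT4, SOX2, KLF4 and c-MYC, which the other cells of the series received. The members were the peaks of both lists, 6954 in WT and 4113 in KO, out of 53171 peaks in all 10 H3K27me3 lists of the series and 2 of its 20 samples. They were sorted by an overlap of at least 1 bp into WT-only peaks, shared peaks and KO-only peaks. The knockout was a conventional one, not restricted to a tissue, and the strain label differs together with the genotype. OG2 names a reporter transgene in which the Oct4 (Pou5f1) promoter drives GFP. The study's text, however, describes WT and KO MEFs from the same litters that lack this reporter, so the sources disagree on whether the strains differed. If the labels hold, the effects of genotype and strain cannot be told apart. With 1 library per genotype no difference had a replicate check and no test was possible, and every interval given is a 95% interval for counting error alone. Read numbers of the MEF H3K27me3 libraries are not given in the sources used here, and deeper sequencing can lengthen a peak list.

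H3K27me3 is laid down by the Polycomb repressive complex PRC2, whose catalytic subunit is EZH2, and is read by CBX proteins of the complex PRC1. It lies mainly over CpG-dense promoters of genes that are silent in a cell but active in another lineage, above all genes for transcription factors and signals that pattern the embryo. JMJD3, encoded by Kdm6b, and UTX, encoded by Kdm6a, are Jumonji enzymes that remove the mark. Because a peak caller reports places that pass a threshold, the number of peaks is not the amount of H3K27me3.

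The central 200 bp of 4 peaks are shown as examples of the sequence under the mark, too few to stand for their classes. They are from the 2 best-scoring shared and the 2 best-scoring KO-only peaks that lay within 1 kb of a transcription start site (TSS) of a protein-coding gene, with at most 10% repeat-masked sequence and, for KO-only peaks, with no WT peak within 5 kb. No WT-only window is shown, so they make no contrast with that class. All are from the plus strand of GRCm38.p6, and capitals mark the CG dinucleotides. The shared windows lay at Dgkz (chr2:91975965-91976164, 14 CG), a diacylglycerol kinase, and Sowahb (chr5:93044097-93044296, 23 CG). The KO-only windows lay at Acvrl1 (chr15:101129309-101129508, 4 CG), a TGF-beta family receptor of endothelium, and Clstn1 (chr4:149588023-149588222, 4 CG), a synaptic cadherin-like protein.
Dgkz shared: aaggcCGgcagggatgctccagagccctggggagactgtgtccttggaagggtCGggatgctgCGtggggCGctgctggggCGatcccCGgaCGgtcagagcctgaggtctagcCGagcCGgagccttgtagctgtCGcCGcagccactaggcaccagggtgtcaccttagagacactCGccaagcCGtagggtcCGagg
Sowahb shared: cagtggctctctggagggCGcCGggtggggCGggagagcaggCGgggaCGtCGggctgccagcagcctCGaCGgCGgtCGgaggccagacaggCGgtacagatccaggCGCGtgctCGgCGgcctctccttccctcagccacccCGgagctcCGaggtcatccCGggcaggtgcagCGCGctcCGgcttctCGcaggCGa
Acvrl1 KO-only: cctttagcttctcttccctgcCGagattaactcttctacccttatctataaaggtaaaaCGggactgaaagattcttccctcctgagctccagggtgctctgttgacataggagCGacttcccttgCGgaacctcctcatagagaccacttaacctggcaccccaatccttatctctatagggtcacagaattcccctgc
Clstn1 KO-only: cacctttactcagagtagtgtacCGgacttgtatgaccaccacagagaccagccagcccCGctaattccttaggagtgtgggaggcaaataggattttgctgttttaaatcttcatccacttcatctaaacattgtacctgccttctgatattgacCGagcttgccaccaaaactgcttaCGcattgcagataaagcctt

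The strongest peaks were common to both genotypes and weaker ones were shared less often. All of the 100 best-scoring WT peaks overlapped a KO peak, and all of the 100 best-scoring KO peaks overlapped a WT peak (96.3% to 100% each). In the best decile of each list by score, 669 of 695 WT peaks (96.3%, 94.6 to 97.4) and 405 of 411 KO peaks (98.5%, 96.8 to 99.3) overlapped. In the lowest decile this held for 76 of 696 WT peaks (10.9%, 8.81 to 13.5) but for 192 of 412 KO peaks (46.6%, 41.8 to 51.4). The WT share fell from decile to decile down to 11.8% in decile 8 and was 13.8% and 10.9% in the last ones, and the KO share fell through all 10. Scores are on the peak caller's own unstated scale and were ranked within each list. WT-only peaks had a median score of 8.87 in a list whose median was 11.9, and KO-only peaks a median of 8.05 in a list whose median was 10.7. No WT-only or KO-only peak came near the ceiling of 200, their highest scores being 103 and 35.6.

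**Figure D1:**
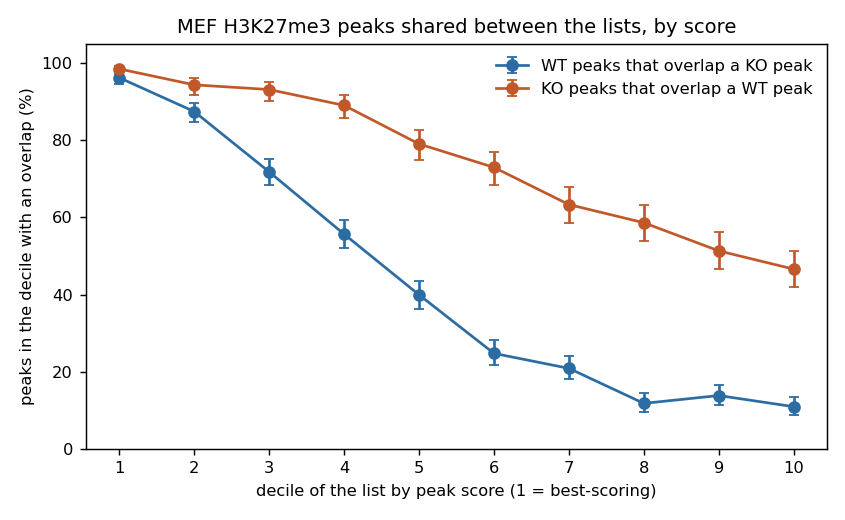
Share of peaks (%, y axis) that overlap a peak of the other genotype, for each decile of the WT and KO lists by score (x axis, 1 is the best-scoring decile), with 95% Wilson intervals. The WT share runs from 96.3% to 10.9% and the KO share from 98.5% to 46.6%.

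Of the WT list 3941 peaks were WT-only (56.7%) and of the KO list 1040 were KO-only (25.3%), and these shares depend on the list lengths. Cut to the 4113 best-scoring peaks, the WT list held 1509 peaks without a KO overlap (36.7%, 35.2 to 38.2) against 1432 (34.8%, 33.4 to 36.3) in the KO list. Of the 2841 WT peaks that the cut left out, 2432 (85.6%, 84.3 to 86.9) had no KO overlap. The peaks that overlapped did not always coincide. Among 3013 shared WT peaks the best overlapping KO peak was displaced by a median of 241 bp, and in 22.6% by at most 100 bp. Ranks of the paired peaks had a Spearman rho of 0.63 across peaks of the 2 libraries, given as a description.

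Many KO-only peaks lay beside a WT peak. Within 5 kb of a WT peak were 396 of 1040 KO-only peaks (38.1%, 35.2 to 41.1), against 626 of 3941 WT-only peaks within 5 kb of a KO peak (15.9%, 14.8 to 17.1), the WT list being the longer. For the best-scoring quartile of each class the shares were 158 of 260 (60.8%, 54.7 to 66.5) and 271 of 985 (27.5%, 24.8 to 30.4). Sall4, a zinc finger factor of embryonic stem cells, showed such a pair. Its WT peak (chr2:168765665-168766664, score 67.1) and its KO peak (chr2:168766676-168767675, score 12.95) were 11 bp apart and so counted as WT-only and KO-only. A peak of only 1 list therefore did not always mark a locus of only 1 list, and genes were also classified as a whole.

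Shared peaks lay at CpG-dense promoters more often than those of either list alone. A TSS lay within 5 kb of 73.4% of shared peaks (71.8 to 74.96), 50.1% of WT-only peaks (48.5 to 51.7) and 53.4% of KO-only peaks (50.3 to 56.4). A TSS lay inside the peak in 853 of 3013 shared (28.3%, 26.7 to 30.0), 505 of 3941 WT-only (12.8%, 11.8 to 13.9) and 82 of 1040 KO-only peaks (7.88%, 6.40 to 9.68). Peaks with at least 50% G and C and an observed-to-expected CpG ratio of at least 0.6 over the 1000 bp were called CpG-rich. They made up 32.7% of shared peaks (31.0 to 34.3), 9.06% of WT-only peaks (8.20 to 10.0) and 4.42% of KO-only peaks (3.33 to 5.85). Median CpG numbers per peak were 38, 14 and 11, and median G and C contents 55.6%, 49.2% and 44.7%. Peaks with their centre between genes made up 30.2% of shared, 47.2% of WT-only and 51.2% of KO-only peaks, while centres in introns made up 41.8%, 40.5% and 39.5%.

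The order of the classes by CpG content held at equal list length, where WT-only peaks were CpG-rich in 16.4% (14.7 to 18.4) and KO-only peaks in 5.24% (4.20 to 6.52), a difference of 11.2 points (9.002 to 13.4). The order of WT-only and KO-only peaks near a TSS did not hold, with a WT-only minus KO-only difference of -3.28 points (-6.67 to 0.14) for full lists and 6.22 points (2.65 to 9.77) at equal length. The score moved with CpG content. Within the best quartile of the WT list, 757 of 1547 shared peaks (48.9%) and 73 of 191 WT-only peaks (38.2%) were CpG-rich, a difference of 10.7 points (3.23 to 17.8) against 23.6 points (21.7 to 25.5) over the whole list. In the second quartile the difference was 4.02 points (0.42 to 7.59). A TSS lay within 5 kb of 81.6% of shared and 77.0% of WT-only peaks in the best WT quartile. These shares were 67.3% and 63.5% in the second, 63.1% and 47.65% in the next and 57.4% and 41.5% in the lowest. In the best KO quartile a TSS lay within 5 kb of 37 of 44 KO-only peaks (84.1%, 70.6 to 92.1). Within the best quartile of the KO list, 437 of 984 shared peaks (44.4%, 41.3 to 47.5) but 8 of 44 KO-only peaks (18.2%, 9.51 to 32.0) were CpG-rich. More than 50% of the sequence was repeat-masked in 6.54% of KO-only (5.19 to 8.21), 3.45% of WT-only (2.92 to 4.07) and 1.23% of shared peaks (0.89 to 1.69). The part of base composition and repeats in these differences was not tested.

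**Figure D2:**
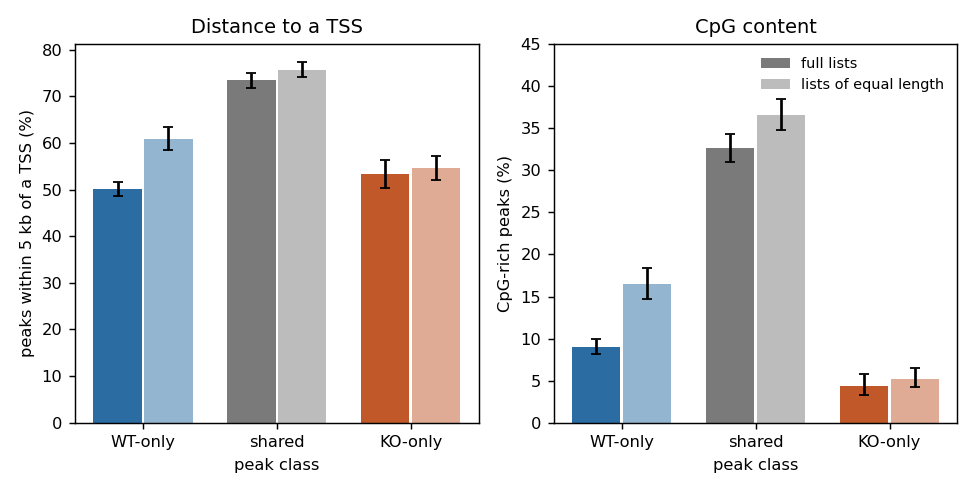
Share of peaks (%, y axes) within 5 kb of a TSS (left) and share that are CpG-rich (right) for the 3 peak classes (x axis), with dark bars for full lists, pale bars for lists of equal length and 95% Wilson intervals. Shared peaks stand highest in both panels, at 73.4% and 32.7% for full lists, and KO-only peaks are the least CpG-rich, at 4.42%.

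At the level of genes, 2063 of 21951 protein-coding genes (9.40%) had a peak within 5 kb of a TSS in both genotypes, 1142 (5.20%) in WT only and 190 (0.866%) in KO only. Any WT peak was found at 3205 genes (14.6%) and any KO peak at 2253 (10.3%). At equal list length the numbers were 1899 (8.65%), 560 (2.55%) and 354 (1.61%). Of the 1142 WT-only genes, 100 had a KO peak 5 to 10 kb away, as did 25 of the 190 KO-only genes for a WT peak. Of the 3205 genes with a WT peak, 64.4% also had a KO peak. This share followed the best score of the gene in WT, with 783 of 801 genes (97.8%, 96.5 to 98.6) in the best quartile, 674 of 801 (84.1%, 81.5 to 86.5) in the second, 425 of 801 (53.1%, 49.6 to 56.5) in the next and 181 of 802 (22.6%, 19.8 to 25.6) in the lowest. Most peaks of 1 list lay away from protein-coding promoters, with 2392 WT-only (60.7%) and 604 KO-only peaks (58.1%) having no such TSS within 5 kb.

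Kdm6b itself had no peak within 5 kb of a TSS in either list, so the peaks do not check the knockout. The nearest WT peak lay 7815 bp from the gene (chr11:69398508-69413675, minus strand) and the nearest KO peak 112499 bp from it. The labelled cell type was compared with marker genes. Of 35 genes for fibroblast matrix and identity, 33 had no peak in either list, as did all 28 housekeeping genes, beside 18556 of all 21951 protein-coding genes. The exceptions were Tcf21, a mesenchymal factor with a peak in both lists, and Thy1, a surface glycoprotein with a weak WT peak (score 10.1, percentile 41.7) and no KO peak. Percentiles here give the rank of a peak in its own list, from 0 for the lowest to 100 for the best. Of 12 epithelial markers, 9 had a peak in both lists and 1 in WT only. Of the markers of other cell types, 6 of 10 neural, 3 of 6 muscle, 1 of 6 endothelial, 1 of 7 blood and 4 of 8 pluripotency genes had a peak in both lists, and 2 neural genes (Pax6 among them) and 2 pluripotency genes (Pou5f1 and Nanog) had one in WT only. Over all protein-coding genes 9.40% had a peak in both and 5.20% in WT only, and lists this small hold few genes to set beside these shares. A KO peak lay 5 to 10 kb from a TSS of Pax6, a factor of eye and brain development. No RNA was measured in these files.

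Genes for developmental transcription factors were mostly called in both genotypes. Of 255 such genes, 194 had a peak in both lists, 24 in WT only and 1 in KO only, beside shares of 9.40%, 5.20% and 0.866% over all protein-coding genes. At equal list length 183 were in both, 17 in WT only and 12 in KO only, and over all genes 8.65%, 2.55% and 1.61%, so the small number in KO only depends on the longer WT list. Of the 24 genes called in WT only, 12 had a KO peak between 5 and 10 kb from a TSS. Among 103 homeobox genes outside the Hox clusters, 88 had a peak in both, 11 in WT only and none in KO only, and at equal list length 82, 9 and 6. Their best peaks had a median percentile of 78.7 in WT and 69.9 in KO, beside 80.4 and 66.6 over all genes with a peak in both. Among the highest shared ranks were those of Dlx4 (WT score 135, KO score 45.5), Phox2a, a factor of autonomic neurons (100.2 and 63.2), and Emx1, a factor of the forebrain (74.7 and 49.0). Each of these had a peak in all 8 later H3K27me3 lists. The 11 genes called in WT only were Pax6, Tlx3, Barhl1, Dlx6, Vax1, Pou4f3, Dlx2, Msx2, Pdx1, Irx2 and Meox1. For 8 of them a KO peak lay 5 to 10 kb from a TSS, the exceptions being Vax1, Msx2 and Meox1. Uncx, a factor of the axial skeleton, and Pou4f1, a factor of sensory neurons, ranked higher in KO, with percentiles of 99.3 and 97.8 in KO against 74.4 and 69.8 in WT, an example picked after the values were seen.

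The families below are to be read beside the same shares over all protein-coding genes, 9.40% in both, 5.20% in WT only and 0.866% in KO only. Among the forkhead genes 24 of 28 had a peak in both lists and Foxp2 alone in WT only. Foxd2 (WT score 79.3, KO score 41.4) and Foxf1, a factor of lateral mesoderm (74.9 and 34.5), were among the best shared genes. For 5 of 6 GATA genes peaks were called in both, with Gata6, an endoderm factor, at 48.5 in WT and 38.25 in KO and Gata5 at 114 and 15.1. Of 17 T-box genes 10 were shared, among them Tbx21, T and Tbx1, and Tbx22 had a WT peak alone. Of 19 Sox genes 10 were shared, led by Sox10, a neural crest factor (76.05 and 33.6), and Sox8 was in WT only with a score of 38.3 (percentile 83.5). Among 41 tissue bHLH genes 25 were shared, led by Ferd3l, Mesp1 and Tcf15. In WT only 3 were called, among them Atoh7 and Neurod6 with scores of 8.48 and 9.18. For Atoh7 a KO peak lay 5 to 10 kb from a TSS. Hand2, a factor of heart and limb, was the gene called in KO only (score 9.90), with a WT peak 5 to 10 kb from a TSS. With lists of equal length the forkhead, Sox, T-box and bHLH lists each had 1 gene in KO only and the GATA list none.

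Developmental factors kept a KO peak also where their WT peak was weak. By the quartiles of best WT score used above, 74 of 77, 77 of 86, 31 of 36 and 12 of 19 developmental factors with a WT peak had a KO peak. Over the other genes the counts were 709 of 724, 597 of 715, 394 of 765 and 169 of 783. In the next-to-lowest quartile the shares were 86.1% (71.3 to 93.9) and 51.5% (48.0 to 55.0). Developmental factors with a WT peak had a mean of 1.77 WT peaks and 1.38 KO peaks within 5 kb of a TSS, against 1.14 and 0.71 for the other genes. The part of peaks per gene in this difference was not tested, and neighbouring genes share peaks.

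The Hox clusters, whose genes set positions along the body axis, were marked in both genotypes. Of 41 genes of the 4 clusters, Evx1 and Evx2 included, 32 had a peak in both lists, 7 in WT only and none in KO only, beside 9.40%, 5.20% and 0.866% over all genes. At equal list length 30 were in both, 5 in WT only and 2 in KO only. The clusters with 5 kb on each side held 88 WT and 61 KO peaks, of which 37 WT and 40 KO peaks overlapped the other list. Over all peaks 43.3% of WT and 74.7% of KO peaks did so. In the full lists HoxA held 20 WT and 18 KO peaks, HoxB 23 and 16, HoxC 26 and 11, and HoxD 19 and 16. With the WT list cut to the length of the KO list, an alternative chosen after the values were seen, the clusters held 58 WT and 61 KO peaks. HoxA then had 11 WT and 18 KO peaks, HoxB 16 and 16, HoxC 16 and 11, and HoxD 15 and 16, so more WT than KO peaks were left in HoxC alone. In the full lists a WT peak overlapped 12 of 18 KO peaks in HoxA and 10 of 11 in HoxC. The counts were 9 of 16 in HoxB and 9 of 16 in HoxD. At equal list length they were 8 in HoxA, 9 in HoxB, 9 in HoxC and 6 in HoxD. By WT score the best peaks were at Hoxb1 (WT score 92.4, KO score 22.5), Hoxd1 (77.7 and 14.2) and Hoxb7 (69.2 and 23.3). The KO score of Hoxd1 was below those of other Hox genes, among them Hoxb9 (22.8) and Hoxb13 (21.5). At Hoxb7 the best WT and the best KO peak did not overlap. The scores printed for a gene are those of its best peak in each list, which need not be the same interval. Hoxa2, Hoxa3, Hoxa7, Hoxb4, Hoxc12, Hoxd11 and Hoxd12 were called in WT only, with scores between 6.61 for Hoxa3 and Hoxa7 and 29.7 for Hoxc12. For Hoxc12 and Hoxd12 a KO peak lay 5 to 10 kb from a TSS. At Hoxb9 the KO peak ranked higher, at percentile 84.9 (score 22.8), than the WT peak at percentile 13.1 (score 7.16).

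**Figure D3:**
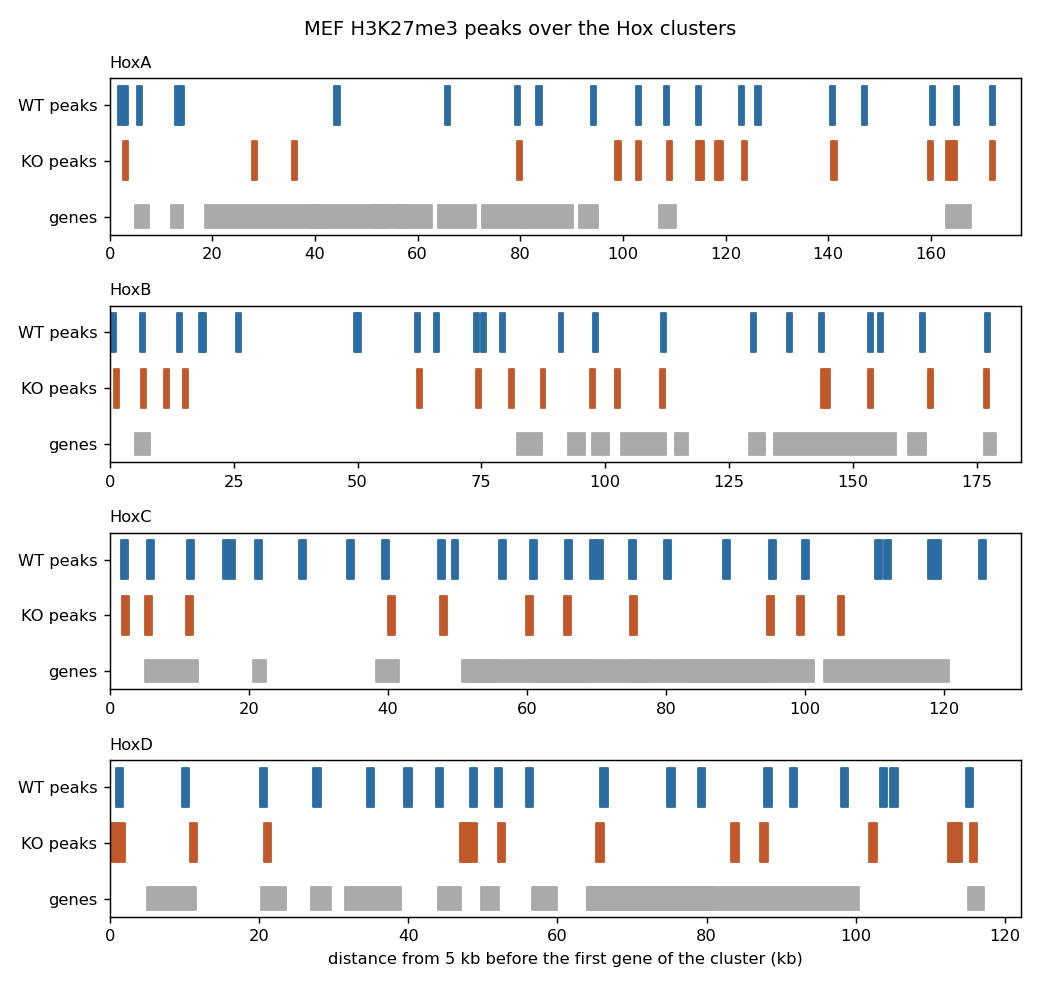
WT peaks (top row of each panel), KO peaks (middle row) and genes (bottom row) over the 4 Hox clusters, by distance in kb from 5 kb before the first gene (x axis). In these full lists WT peaks outnumber KO peaks in every cluster, which at equal list length holds for HoxC alone (16 against 11), and several KO peaks, 21 over all clusters, do not overlap a WT peak.

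Secreted signals of the Wnt, Bmp, Fgf and hedgehog families gave 36 of 56 genes with a peak in both lists, 5 in WT only and none in KO only, where the shares over all protein-coding genes, also for the neuronal, blood and endothelial genes that follow, were 9.40%, 5.20% and 0.866%. With lists of equal length 34 signals were in both, 4 in WT only and 2 in KO only. The highest shared ranks were those of Fgf11 (WT score 200, KO score 39.7), Bmp6 (109.5 and 37.5), Bmp8b (80.5 and 40.1) and Wnt7b (73.6 and 40.3). Ihh, the signal of cartilage growth plates, had a score of 124 in WT (percentile 99.0) and 11.6 in KO (percentile 55.0). Wnt16, Wnt10a, Wnt11, Wnt8b and Fgf6 were called in WT only, all with scores of at most 16.0. For Wnt10a a KO peak lay 5 to 10 kb from a TSS. Of 40 neuronal channel, receptor and synapse genes 24 were shared, 6 were in WT only and 2, Snap25 and Gabra2, in KO only. Pcdh17, Pcdh10 and Rbfox3 ranked highest among the shared genes. Snap25 and Gabra2 had KO scores of 7.25 and 7.82 and were called in none of the 8 later lists. Among 26 blood and endothelial genes 7 were shared, led by Tal1, a factor of blood stem cells (46.0 and 25.2), and Erg, an endothelial factor, was in KO only with a score of 9.04.

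Epithelial genes, which are silent in fibroblasts and are switched on when cells become pluripotent, were mostly called in both lists where they had a WT peak. Of 40 genes 19 had a peak in both lists, 3 in WT only and none in KO only, beside 9.40%, 5.20% and 0.866% of all protein-coding genes. Of all genes with a WT peak 64.4% also had a KO peak. Over the 19 shared genes the median percentiles were 94.7 in WT and 79.9 in KO, and over all shared genes 80.4 and 66.6. Cdh1, which encodes E-cadherin, had a WT peak at chr8:106603541-106604540 centred in an intron with a score of 94.6 and an overlapping KO peak with a score of 32.55, at percentiles 97.5 and 93.5. Epcam, an adhesion molecule, scored 75.7 in WT and 33.0 in KO, with percentiles of 95.01 and 93.9. Dsp, a desmosome protein, scored 72.6 and 34.6, with percentiles of 94.4 and 94.7. Ocln, a tight junction protein, stood at percentile 96.4 in WT and 69.6 in KO, and Pkp1, another desmosome protein, at 86.3 and 35.0. Cldn7, Ovol1 and Grhl2 led the shared ranks. Tjp3, Cldn4 and Lama5 were called in WT only, with scores of 24.1, 18.99 and 7.25, and a KO peak lay 5 to 10 kb from a TSS of Tjp3.

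Of 32 pluripotency genes 14 were shared, 6 were in WT only and none in KO only, while over all genes 9.40%, 5.20% and 0.866% fell in these classes. Of the 20 with a WT peak, 70% (48.1 to 85.5) also had a KO peak, beside 64.4% of all genes with a WT peak. At equal list length 14 were shared and 3 were in WT only. Tdh, an enzyme of threonine catabolism in embryonic stem cells, had a WT peak over its TSS (chr14:63508389-63509388, score 23.4, percentile 72.1), and the nearest KO peak lay 64607 bp away. Nanog had a WT peak over its TSS (chr6:122707269-122708268, score 11.7, percentile 49.2) and Pou5f1, which encodes OCT4, one at chr17:35505559-35506558 (score 7.96, percentile 24.0). If the WT cells carried the OG2 reporter, as labelled, they held extra copies of Pou5f1 sequence, and the part of this in the peak was not tested. Tfcp2l1 and Dnmt3l had WT peaks with scores of 10.55 and 7.01. None of the 6 had a KO peak within 10 kb of a TSS, and their WT scores ran from 7.01 to 23.4. Utf1 (WT score 135, KO score 60.0), Esrrb (123 and 42.5) and Prdm14 (92.9 and 29.2) were shared. Lin28a, an RNA-binding protein, was shared with percentiles of 99.3 in WT and 73.9 in KO. Sall1, a zinc finger factor, had percentiles of 67.2 and 81.8, and Tdgf1, a Nodal co-receptor, 82.2 and 47.3.

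Among 7 genes for inhibitors of cyclin-dependent kinases, Cdkn1c had a peak in both lists (WT score 29.05, KO score 19.7). Cdkn2a, which encodes the senescence proteins INK4A and ARF, had a WT peak in an intron (chr4:89278307-89279306, score 15.0, percentile 59.3). The nearest KO peak lay 11484 bp from it. A peak within 5 kb of a Cdkn2a TSS was called in 5 of the 8 later lists. Of 33 genes for Polycomb proteins and H3K27 demethylases 5 were shared and 5 were in WT only, and at equal list length 4 were shared, 1 was in WT only and 1 in KO only. For this list, the kinase inhibitors and the imprinted genes the shares over all protein-coding genes were likewise 9.40% in both, 5.20% in WT only and 0.866% in KO only. Cbx8, a reader of the mark (WT score 125, KO score 52.4), Bmi1 and Cbx2 were among the shared genes. Phf19, Rybp, Cbx7, Pcgf3 and Phc2 were called in WT only with scores of at most 10.1, and of these Phf19 alone was still called in WT at equal length. Of 25 protein-coding imprinted genes 7 were shared, Dlk1 was in WT only (score 24.8) and Magel2 in KO only (score 8.17).

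**Figure D4:**
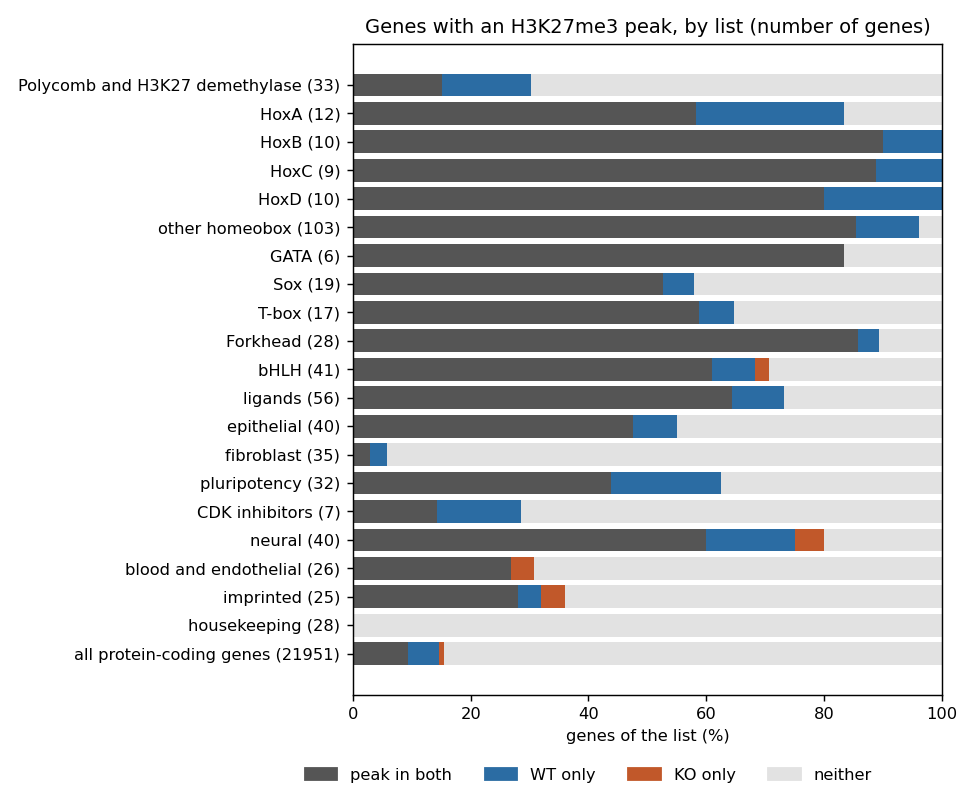
Share of the genes of each list (x axis, %) with a peak within 5 kb of a TSS in both genotypes (dark), in WT only (blue), in KO only (orange) or in neither (pale), with the number of protein-coding genes in brackets. Hox, homeobox and forkhead genes are mostly dark, housekeeping genes have no peak, and over all 21951 genes 9.40% had a peak in both.

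Among the best-scoring WT-only peaks at genes, Prdm12, a factor of pain-sensing neurons, came first (score 103), but a KO peak lay 211 bp away. The same held for Cdk5r2, Wnk2, Pax5 and Sall4, where a KO peak lay 11 to 491 bp away, and for Ppp2r2c at 1383 bp. No KO peak lay within 5 kb of the WT-only peaks at Pax6 (score 82.1, 7339 bp), Nkx1-2, a homeobox factor (80.5, 442657 bp), and Atp12a, a proton pump subunit of epithelia (75.7, 316293 bp). The next such peaks included those at Tlx3 and Scube1. The peaks at Nkx1-2 and Scube1 were called in all 8 later lists, KO cells included, and that at Atp12a in 1 of them.

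The best-scoring KO-only peaks lay at Scrt1, Tfap2c, Otx2, Insm1, Rax, Cpm, Nr2e1, Nkx1-1, Pax5 and Nkx3-2. Scrt1 and Insm1 are factors of neurons and endocrine cells, Otx2 and Rax of the forebrain and eye, and Nkx3-2 of cartilage. A WT peak lay within 33 to 2193 bp of every one of these 10. Of these the Scrt1 peak (score 35.6) had 12 CpG and was called in none of the later lists, while that of Otx2 (score 34.5) was called in 7. KO-only peaks with no WT peak within 5 kb scored lower. The best lay at Tfap2b (score 22.7, with a WT peak 5163 bp away), then at Acvrl1 (18.0), 1700017D01Rik (17.8, 79.2% repeat-masked) and Dnm3, a dynamin (17.0, with the nearest WT peak 1302063 bp away). Of the 10 best of this kind, those at 1700017D01Rik, Krba1 and Scamp2 were called in none of the 8 later lists.

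Among shared peaks the highest mean percentile belonged to a peak over Gm10800 (score 200 in both lists), 85.7% of which was repeat-masked, and a peak at Sfi1 was 55.1% masked. Such sequences occur in many copies, and both peaks were called in all 8 later lists. The others at the top lay at Aida, Dgkz, Klf14, Elavl3, Egr4, Gm9945, Ajm1 and Wdr86. Ranks differed most towards WT at Crhr2, a corticotropin receptor (WT percentile 99.2, KO percentile 2.14), Rax, an eye field factor (99.1 and 7.17), Dpys (94.98 and 5.69), Adamts8 (95.8 and 10.1) and Pipox (84.9 and 1.92). They differed most towards KO at Fam169a (1.94 and 85.7), Pcdh12, an endothelial protocadherin (0.29 and 77.9), Cacna1a, a neuronal calcium channel (5.46 and 74.2), and Hpgd, a prostaglandin dehydrogenase (2.62 and 69.3). At Rax a stronger KO-only peak lay 1316 bp from a TSS, beside the weak overlapping KO peak.

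The MEF peaks were then looked up in the H3K27me3 lists of OSKM cells with the FLAG control at day 5 and day 10. By the study's text these later cells were grown in medium with vitamin C. At day 5, 36.8% of WT-only peaks (35.3 to 38.3) overlapped a peak of WT cells and 31.4% (29.9 to 32.8) a peak of KO cells. At day 10 the shares were 24.2% (22.9 to 25.6) and 25.1% (23.8 to 26.5). With all 4 later lists cut to 5131 peaks the day 5 difference went from 5.43 points (3.34 to 7.51) to 1.55 points (-0.48 to 3.57). Shared peaks overlapped in 80.2% (78.7 to 81.5) and 77.8% (76.2 to 79.2) at day 5, and in 63.3% (61.6 to 64.996) and 67.5% (65.8 to 69.1) at day 10. With the same cut their WT minus KO difference at day 5 went from 2.39 points (0.33 to 4.45) to 0.50 points (-1.64 to 2.64). At day 10 it went from -4.18 to -3.35 points (-5.76 to -0.94). KO-only peaks overlapped a peak of WT cells in 23.1% (20.6 to 25.7) and of KO cells in 21.8% (19.4 to 24.4) at day 5. This was a WT minus KO difference of 1.25 points (-2.34 to 4.83). None of the 8 later lists held 1564 WT-only peaks (39.7%, 38.2 to 41.2), 261 shared peaks (8.66%, 7.71 to 9.72) and 548 KO-only peaks (52.7%, 49.6 to 55.7). All 8 held 1038 shared (34.5%), 186 WT-only (4.72%) and 19 KO-only peaks (1.83%).

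**Figure D5:**
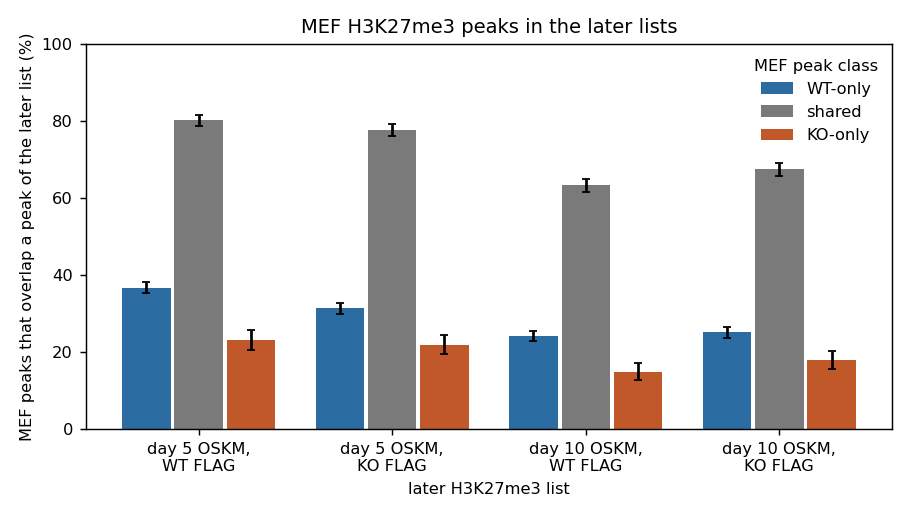
Share of WT-only, shared and KO-only MEF peaks (y axis, %) that overlap an H3K27me3 peak of OSKM cells with FLAG at day 5 or day 10 in WT or KO cells (x axis), with 95% Wilson intervals. Shared peaks stand between 63.3% and 80.2%, and WT-only peaks lie above KO-only peaks in all 4 lists.

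Genes gave the same order. Of the 1142 genes called in WT MEFs only, 621 (54.4%, 51.5 to 57.2) had a peak in day 5 WT cells and 558 (48.9%, 46.0 to 51.8) in day 5 KO cells, against 669 (3.61%) and 527 (2.84%) of the 18556 genes without a peak in either MEF list. Of the 190 genes called in KO MEFs only, 67 (35.3%, 28.8 to 42.3) had a peak in each of these lists. Nanog, Tdh and Cdkn2a were called in day 5 WT cells, and Tdh and Cdkn2a also in day 5 KO cells, whereas Pou5f1 was called in KO cells and not in WT cells at day 5.

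The distance between the genotypes was compared with that at later times, with each of the 6 lists cut to its 4113 best-scoring peaks. Time, OSKM and vitamin C differ together between MEFs and the later cells and cannot be told apart. WT peaks overlapped a KO peak in 63.3% (61.8 to 64.8) of MEF peaks, 75.3% (74.0 to 76.6) at day 5 and 62.7% (61.2 to 64.1) at day 10. The MEF share minus that of day 5 was -12.0 points (-14.0 to -10.0), and minus that of day 10 it was 0.66 points (-1.43 to 2.74). CpG-rich peaks made up 29.2% of the WT and 22.9% of the KO MEF peaks, a KO minus WT difference of -6.25 points (-8.14 to -4.35), beside -2.92 points (-5.01 to -0.82) at day 5 and -0.15 points (-2.18 to 1.88) at day 10.

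Later KLF4 peaks and JMJD3 positions were looked up in the MEF peaks, and no share over comparable regions was worked out. Peaks of KLF4 in day 5 WT OSKM cells overlapped 103 shared (3.42%, 2.83 to 4.13), 56 WT-only (1.42%, 1.10 to 1.84) and 13 KO-only peaks (1.25%, 0.73 to 2.13). Positions of FLAG-tagged JMJD3 in day 5 OSKM cells fell in 41 shared (1.36%, 1.00 to 1.84), 41 WT-only (1.04%, 0.77 to 1.41) and 4 KO-only peaks (0.38%, 0.15 to 0.98). At equal list length the JMJD3 shares were 1.34% of shared and 1.92% of WT-only peaks, whose intervals overlap.

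Across chromosomes the KO list was the shorter on every autosome, with ratios of KO to WT peak numbers from 0.475 (0.361 to 0.625) on chromosome 16 to 0.651 (0.511 to 0.829) on chromosome 18. The X chromosome had 47 WT and 19 KO peaks, a ratio of 0.404 (0.237 to 0.689), and 11 of the 47 WT peaks were shared. The Y chromosome had 1 KO peak and no WT peak. The interval of the X ratio holds the ratio of 0.591 for all chromosomes.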

How the data were processed

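H3K27me3 was profiled by ChIP-seq in 1 WT and 1 KO MEF library. The authors aligned reads to mm10 with Bowtie2 (version 2.2.0 in the submitters' processing notes) and called H3K27me3 peaks with DFilter for each library. The deposited lists hold intervals of 1000 bp and a score whose scale was not stated, which was used for ranking inside each list. A single score limit was applied to both lists only as an alternative. The deposited KLF4 and JMJD3 lists, from the authors' MACS2 calls, give positions only and were used as intervals. The authors spiked in Drosophila material and scaled mouse H3K27me3 reads by the mapped Drosophila reads, but whether peaks were called on scaled reads was not stated. Read numbers of the MEF H3K27me3 libraries are not given in the sources used here.

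Peaks were compared by an overlap of at least 1 bp, also at equal list length (4113 best-scoring peaks). TSSs came from basic transcripts of GENCODE M21 and were matched within 5 kb, and 21951 protein-coding genes were classified. Base composition and repeat masking came from GRCm38.p6. Shares carry 95% Wilson intervals, differences Newcombe intervals (which treat classes and lists as independent) and ratios Poisson intervals on the log scale. Neighbouring peaks are not independent. Genes of each list were named by the best-ranked peaks per class, together with genes of the study and the genes at the 10 best-scoring peaks of each class and at the largest rank differences. Peaks of 1 list with none of the other within 5 kb were ranked after the values were seen, and Uncx, Pou4f1, Hoxb9, Ihh and Lin28a were likewise named afterwards. The 5 imprinted genes without a protein-coding entry were left out. Members and lists were chosen with earlier results of these data known. The overlap routine recovered all 2000 shared peaks planted in simulated lists of 6954 and 4113 peaks and gave the same counts as bedtools 2.31.1. Software was samtools 1.23.1 and Python 3.11.15 with pysam 0.24.0, scipy 1.17.1 and numpy 2.4.6. Sequence windows on chromosome 18 were passed over. Some genes and sequence windows that these rules select are not reported here.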

Additional observations from a re-analysis of the deposited data

Results flagged for a closer look

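The ratio of KO to WT peak numbers stood at 0.591 in MEFs (0.569 to 0.615), at 0.878 in day 5 OSKM cells with FLAG (0.847 to 0.910) and at 1.05 in day 10 OSKM cells with FLAG (1.01 to 1.09), so that day 10 went the opposite way from MEFs and day 5. With 1 library per group this difference between the stages was not tested. These ratios count peaks, not the amount of H3K27me3, and were not adjusted for the read numbers of the libraries. The study's text describes higher average signal in KO than in WT cells at the earlier OSKM stage, around gene starts, gene ends and gene deserts. The peak ratio of that stage went the other way, and the cause was not tested.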

How the results depend on the processing

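No paired analysis was possible because each genotype had 1 library, and leaving out a replicate could not be done for the same reason. Raising the score to at least 20 in both lists, whose scales may differ, moved the ratio of KO to WT peak numbers to 0.360, the share of WT peaks with a KO overlap to 32.5% and that of KO peaks with a WT overlap to 90.5%. Within the Hox clusters the ratio turned from 0.693 (0.500 to 0.961) to 1.05 (0.734 to 1.51) at equal lengths, a setting chosen after the data were seen. Requiring 50% overlap gave 35.5% and 60.5%, allowing 1 kb gave 46.4% and 80.2%, equal lengths gave 63.3% and 65.2%, and the best 2000 peaks of each list gave 67.9% and 67.9%. With a TSS limit of 1 kb the shares near a TSS were 26.7% of WT-only, 51.2% of shared and 22.5% of KO-only peaks, with 10 kb 66.1%, 83.2% and 70.3%, and with protein-coding TSSs 39.3%, 64.2% and 41.9%. Equal lengths gave 60.9% of WT-only and 75.7% of shared peaks. A CpG ratio of at least 0.75 left 3.78%, 14.3% and 1.54% CpG-rich peaks, and equal lengths gave 16.4% of WT-only and 36.6% of shared peaks. Overlap with day 5 FLAG cells of either genotype went from 44.7%, 85.9% and 32.7% to 48.5%, 88.5% and 44.8% within 1 kb, and to 65.9%, 90.6% and 38.8% with the MEF lists at equal length, but to 39.3%, 83.9% and 28.8% with the later lists cut to 5131 peaks. At equal lengths 560 genes were in WT only and 354 in KO only, and with 1 kb 1363 were in both and 771 in WT only. With a score of at least 20, 626 were in both, 966 in WT only and 29 in KO only. More genes were then in WT only than in both, unlike in the main setting. Shared peaks stayed above both other classes near a TSS with each TSS limit and set, in CpG content with the stricter ratio and with masked peaks left out, and in day 5 overlap within 1 kb. At equal lengths this held for a TSS within 5 kb, CpG-rich peaks and day 5 overlap as first defined. The score, 50% overlap and best 2000 settings were not run by class. In contrast, WT-only peaks lay below KO-only peaks near a TSS at 5 kb, 10 kb and with protein-coding TSSs, and above them at 1 kb and at equal lengths. The cause was not tested.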
